A study of Homo sapiens with 6 samples.

Results

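The G2 and mitosis genes described here are 43 genes whose products act from G2 through cytokinesis: cyclins and their kinase, mitotic kinases, kinetochore and spindle proteins, kinesins, and proteins that shape chromosomes. The list of names was drawn up with earlier results of these data known, so it is not independent of them. A probe belonged to the set if the platform annotation gave it one of these symbols and it was detected (detection p under 0.05) on 2 or more of the 6 arrays. Of 65 such probes 62 passed, and every one of the 43 genes kept at least 1 probe. On the whole array 22377 probes passed the detection filter, with or without a gene symbol, and 12547 genes had a detected probe with 1 symbol. The brightest detected probe stood for each gene, and that probe was detected on all 6 arrays for all 43 genes.

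RNA came from HEK293, a widely used line of transformed human embryonic kidney cells, and was hybridised to Illumina bead arrays. The 3 groups, with 2 arrays each, were untreated control cells, cells given sodium salicylate at 50 mM for 30 min, and cells given it at 50 mM for 60 min. All cells were grown in high-glucose medium with serum, and no label describes a mock-treated group, so handling and added salt cannot be told apart from salicylate. Whether the 2 samples of a group were separate cultures is not given in the labels, so the p-values rest on a spread between samples that may be technical.

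Arrays detected 20726 to 21740 of 47323 probes, and the correlation between any pair of arrays lay between 0.991 and 0.997 across genes. Of 9 genes listed to check the cell line, 8 passed the detection filter and PAX2 did not. The intermediate filament genes VIM, KRT8, NEFM and NEFL had log2 intensities of 10.0 to 14.2 and KRT18 of 7.59 to 7.90, and the kidney development genes SALL1, LHX1 and SIX2 of 5.88 to 7.04. At 60 min against control KRT8 and NEFL rose by 0.26 and 0.33 (adjusted p = 0.00888 and 0.00814), and SALL1 fell by 0.94 (0.0028). Of 12 markers listed for other cell types 11 were on the array and 7 of these had no detected probe, the leukocyte gene PTPRC and the endothelial genes PECAM1 and CDH5 among them. The 4 with a detected probe (COL1A1, COL3A1, ALB and APOA1) had a summed normalized intensity of 362 and 382 in control arrays, 381 and 351 at 30 min and 437 and 454 at 60 min. On the log2 scale their control means were 7.09, 6.74, 6.34 and 5.57. Those of SALL1, LHX1 and SIX2 were 6.89, 6.01 and 6.02, so the kidney development genes were not set apart by intensity. COL3A1, a fibrillar collagen gene, rose at 60 min against 30 min (log2 change 0.51, adjusted p = 0.0233); the part of these markers in the results below was not tested.

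Cells that have copied their DNA enter mitosis when cyclin B and CDK1 become active together. Kinetochores then tie chromosomes to spindle microtubules, the checkpoint holds the anaphase-promoting complex back until all are attached, and destruction of the cyclins allows exit and cytokinesis. Transcripts of these genes are low in G1 and accumulate in G2, in human cells through promoters that hold CCAAT boxes, bound by NF-Y, and a CHR element, bound by the DREAM and MuvB-MYBL2-FOXM1 complexes. In RNA from a mixed culture, more cells in G2 or mitosis and more of these transcripts per cell cannot be told apart.

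RefSeq promoters (GRCh38.p14, 250 bases before to 50 after the start) were listed for 39 of the 43 genes, and the first listed start of each gene was used. The CCAAT box was searched as CCAAT and the CHR element as TTTGAA or TTCGAA, on both strands and counting matches that overlap. A CHR match was present in 31 of 39 promoters (79.5%), against 16.6% of 27305 promoters of all genes, and a CCAAT match in 29 of 39 (74.4%), against 35.7%. Both were present in 24 of 39 (61.5%), against 6.58%. The 4 promoters below run from base -200 to -1 relative to the start, with these motifs in capitals. HMMR and CENPE are shown for having the largest rises at 60 min, CCNB2 as a mitotic cyclin gene, and PRC1 as a gene that did not pass the test in any comparison.
HMMR (chr5:163460432-163460631, plus strand): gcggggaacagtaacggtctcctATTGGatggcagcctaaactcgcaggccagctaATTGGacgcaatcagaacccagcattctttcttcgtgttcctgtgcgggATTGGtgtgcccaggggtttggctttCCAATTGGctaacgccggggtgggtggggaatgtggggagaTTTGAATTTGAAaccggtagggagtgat
CCNB2 (chr15:59104946-59105145, plus strand): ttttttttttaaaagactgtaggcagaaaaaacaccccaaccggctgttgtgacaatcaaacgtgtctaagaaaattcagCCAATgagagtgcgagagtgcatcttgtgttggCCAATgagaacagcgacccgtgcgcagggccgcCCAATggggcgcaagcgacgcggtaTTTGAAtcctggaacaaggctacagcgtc
PRC1 (chr15:90994536-90994735, minus strand): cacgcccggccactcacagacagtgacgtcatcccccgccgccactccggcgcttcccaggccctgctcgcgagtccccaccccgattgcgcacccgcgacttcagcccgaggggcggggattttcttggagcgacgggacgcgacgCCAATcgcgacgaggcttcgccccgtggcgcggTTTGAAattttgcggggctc
CENPE (chr4:103198344-103198543, minus strand): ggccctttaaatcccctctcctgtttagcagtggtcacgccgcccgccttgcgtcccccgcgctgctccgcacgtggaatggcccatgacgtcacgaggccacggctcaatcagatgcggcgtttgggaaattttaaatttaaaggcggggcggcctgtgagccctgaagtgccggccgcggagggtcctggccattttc
The HMMR window held 5 CCAAT matches, 2 of them overlapping, and 2 adjacent CHR matches. The CCNB2 window held 3 CCAAT matches and 1 CHR match, and that of PRC1 1 of each. The CENPE window held neither set of letters.

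After 60 min of salicylate 9 of the 43 genes were higher than in control cells and none was lower. The 9 were CENPE, HMMR, NCAPG, PLK1, BUB1, KIF2C, SMC2, KIF20B and CKAP5, at 1.12-fold to 1.39-fold the control. They made up 20.9% of the set, whereas 10.5% of all genes tested were higher and 12.3% lower. Of the other 34 genes 29 had a positive log2 change. The median over the 43 genes was 0.14 on the log2 scale, against -0.0082 over all genes tested, and 38 of 43 lay above 0 (88.4%), against 48.6% of all genes. Both 60 min arrays lay above both control arrays in 31 genes (72.1%, against 28.9% of all genes) and below both in 2, KIF23 and PRC1 (4.65%, against 31.6%).

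**Figure D1:**
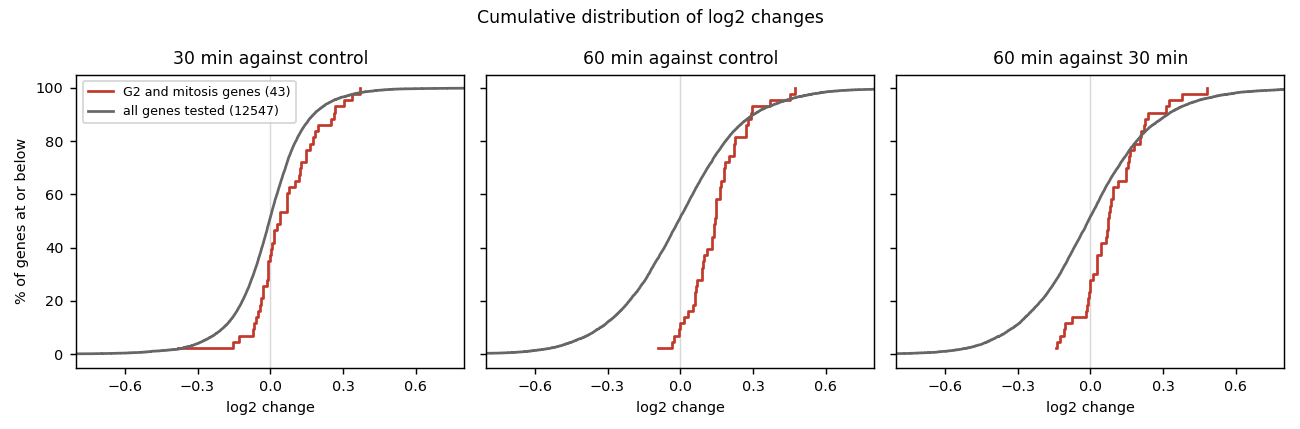
Cumulative share of genes (vertical axis, %) by log2 change (horizontal axis) in each comparison, for the 43 G2 and mitosis genes (red) and all 12547 genes tested (grey). At 60 min against control the red curve lies to the right of the grey one over most of its length, with medians of 0.14 and -0.0082, and it ends at 0.47, where the grey curve runs on to larger changes.

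The set also held more bright probes than the array as a whole: 35 of the 43 genes had a mean above 10 on the log2 scale. Among the 4540 genes above that level, a limit set after the values were seen, 13.2% were higher at 60 min, and 8 of the 35 were (22.9%). Per array, the median deviation of the 43 genes from their control means was -0.020 and 0.020 in the controls, 0.065 and 0.032 at 30 min and 0.11 and 0.16 at 60 min. The 60 min arrays thus lay above the other 4, and 60 min replicate 2 was the highest.

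The largest rises were in a kinetochore motor and a spindle protein. CENPE, a kinesin that carries chromosomes to the spindle equator, had log2 intensities of 10.52 and 10.45 in control arrays, 10.59 and 10.68 at 30 min and 10.98 and 10.94 at 60 min. All arrays of a later time lay above all those of an earlier one. It was 1.39-fold higher at 60 min than in control cells (log2 change 0.47 ± 0.064, SE, n = 2 arrays per group; limma adjusted p = 0.000553). HMMR, a hyaluronan receptor that also binds microtubules at spindle poles, had 11.39 and 11.44 in control arrays, 11.40 and 11.37 at 30 min and 11.88 and 11.86 at 60 min. Control and 30 min arrays overlapped, and both 60 min arrays lay above them. HMMR was 1.37-fold higher at 60 min than in control cells (log2 change 0.45 ± 0.056, adjusted p = 0.000361). The second probe of each gene also rose, by 0.33 ± 0.085 for CENPE (adjusted p over all probes 0.0191) and by 0.57 ± 0.11 for HMMR (0.0042). CENPE and HMMR were the only 2 of the 9 to pass the threshold in all 17 alternative settings, each of the 6 omissions of an array included (highest adjusted p 0.0232 and 0.0179).

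**Figure D2:**
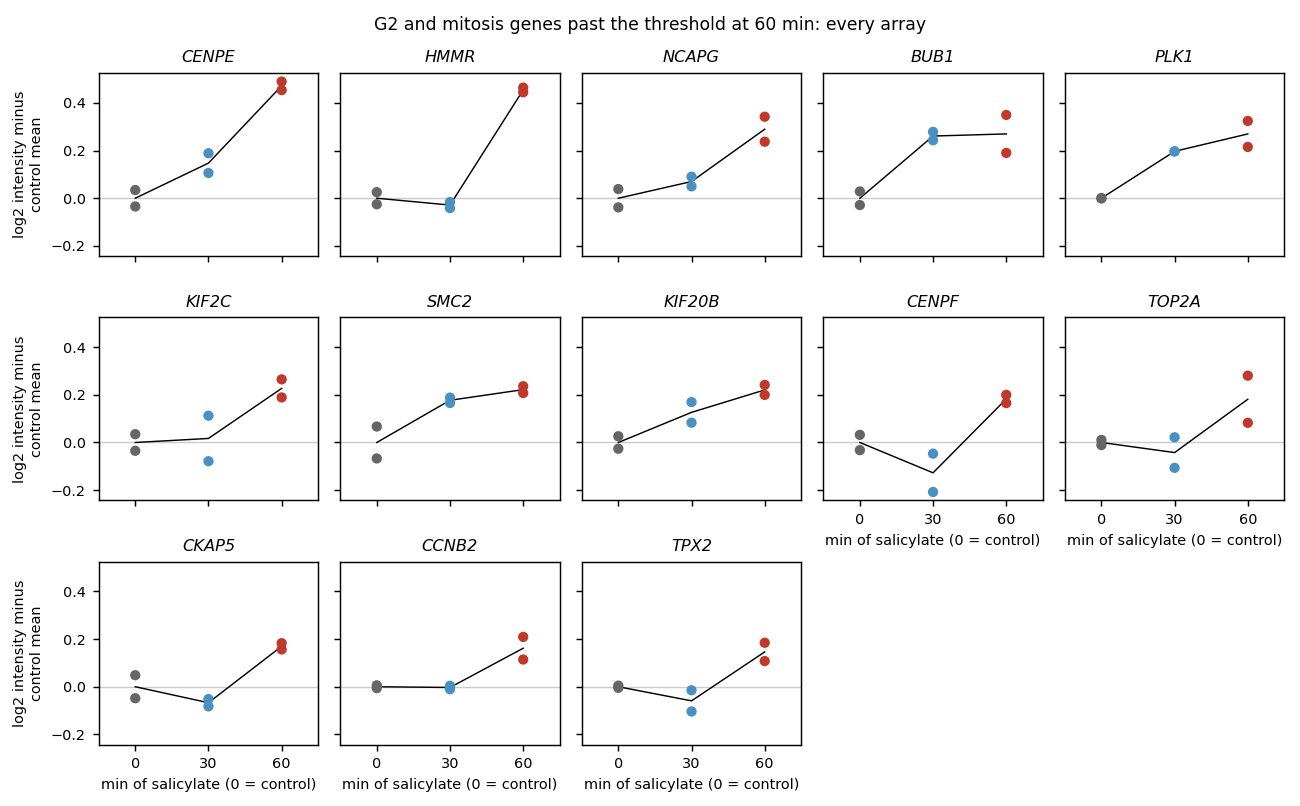
Log2 intensity of each array minus the control mean (vertical axis) at 0, 30 and 60 min (horizontal axis) for the 13 genes past the threshold at 60 min against control or against 30 min, ordered by their change from control. Points are single arrays (grey control, blue 30 min, red 60 min) and lines join group means. CENPE and HMMR lie highest at 60 min, HMMR, CCNB2 and CKAP5 stay near or below the control mean at 30 min, and BUB1, PLK1 and SMC2 are already above it then.

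In the groups by role below, a gene is said to rise only if its adjusted p was under 0.05. Of all genes tested, 10.5% were higher by that rule at 60 min against control, and 48.6% had a log2 change above 0. Among cyclins and their kinase, none of 4 genes passed the test against control cells. CCNB2, cyclin B2, had 12.28 and 12.27 in control arrays, 12.28 and 12.26 at 30 min and 12.48 and 12.39 at 60 min. The 60 min arrays lay above the other 4, and the log2 change from control was 0.16 ± 0.055 (adjusted p = 0.0527). CCNB1, the other B-type mitotic cyclin, had 10.40 and 10.65 in control arrays, 10.85 and 10.73 at 30 min and 10.53 and 10.81 at 60 min, where the groups at 0 and 60 min overlapped. CDK1, the kinase they activate, and CCNA2, the cyclin of S phase and G2, changed by 0.092 and 0.054 at 60 min against control (adjusted p = 0.314 and 0.555).

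Of 7 mitotic kinases 2 rose and the log2 changes of all 7 were above 0. PLK1, a kinase that matures centrosomes and drives entry into mitosis, had 10.24 and 10.25 in control arrays, 10.44 and 10.44 at 30 min and 10.46 and 10.57 at 60 min. It was 1.21-fold higher at 60 min than in control cells (0.27 ± 0.066, adjusted p = 0.012). BUB1, a checkpoint kinase at kinetochores, had 10.63 and 10.69 in control arrays, 10.90 and 10.94 at 30 min and 10.85 and 11.01 at 60 min. Its rise from control was 0.27 ± 0.068 (adjusted p = 0.0147), and its 30 min and 60 min arrays overlapped. Both calls were missed with median scaling (adjusted p = 0.401 for PLK1 and 0.384 for BUB1), without a variance trend, and when control replicate 1, control replicate 2 or 60 min replicate 2 was omitted (0.0635 to 0.0737 for PLK1 and 0.0607 to 0.111 for BUB1). AURKA, which acts at spindle poles, AURKB, the kinase of the passenger complex, NEK2, which splits centrosomes, and the checkpoint genes BUB1B and TTK changed by 0.15, 0.13, 0.14, 0.17 and 0.060, with adjusted p-values from 0.0909 to 0.538. The checkpoint protein gene MAD2L1 and CDC20, the activator of the anaphase-promoting complex that MAD2L1 restrains, changed by 0.090 and 0.068 (adjusted p = 0.24 and 0.366).

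Among 5 kinetochore genes CENPE was the only one to pass the test against control, and 4 had a log2 change above 0. CENPF, a kinetochore protein that also binds the nuclear envelope, had 11.80 and 11.86 in control arrays, 11.62 and 11.78 at 30 min and 12.03 and 11.99 at 60 min. Its 30 min arrays were the lowest and its 60 min arrays the highest, with a change of 0.18 ± 0.064 from control (adjusted p = 0.0595). NDC80 and NUF2, partners in the complex that grips microtubules, changed by 0.28 ± 0.11 and 0.11 ± 0.10 (adjusted p = 0.091 and 0.482). CENPA, the histone H3 variant that marks centromeres, had the lowest value of the set at -0.093 ± 0.069 (adjusted p = 0.373), with 0.038 on its second probe. In the passenger complex, which corrects faulty attachments, CDCA8, BIRC5 and INCENP changed by 0.15, 0.097 and -0.00088, and none passed the test.

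Of 8 kinesins 2 rose and 6 had a log2 change above 0. KIF20B, a motor of late cytokinesis, had 11.26 and 11.31 in control arrays, 11.45 and 11.36 at 30 min and 11.48 and 11.52 at 60 min, and rose by 0.22 ± 0.059 at 60 min against control (adjusted p = 0.02). KIF2C, which takes microtubules apart at centromeres, had 10.44 and 10.37 in control arrays, 10.32 and 10.52 at 30 min and 10.67 and 10.59 at 60 min. Its rise of 0.23 ± 0.075 lay close to the threshold (adjusted p = 0.0484; 0.0579 with the replicate number as a block). KIF20B missed the threshold with median scaling (adjusted p = 0.407), without a variance trend and without control replicate 1, control replicate 2 or 60 min replicate 2. KIF2C missed it with median scaling (0.521), with cyclic loess, without the detection filter and without a variance trend. It also missed it without either array of the control or 60 min groups. KIF18A, which dampens chromosome movements, had a larger change of 0.30 with a larger error of 0.13 (adjusted p = 0.114), and its 60 min arrays stood at 8.19 and 8.51 against 7.92 and 8.18 in controls. The bipolar spindle motor KIF11 and the chromosome arm motor KIF4A changed by 0.088 and 0.067. KIF20A, KIF14 and KIF23, which act at the midzone in cytokinesis, changed by 0.033, -0.0051 and -0.035 (adjusted p from 0.698 to 0.982).

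In the spindle assembly group of 7 genes HMMR and CKAP5 rose, and all 7 log2 changes were above 0. CKAP5, a microtubule polymerase, had 13.37 and 13.47 in control arrays, 13.37 and 13.34 at 30 min and 13.57 and 13.60 at 60 min. It rose by 0.17 ± 0.053 against control (adjusted p = 0.0383), and its dimmer probe by 0.34 ± 0.071 (adjusted p over all probes 0.00703), while its brighter probe had an adjusted p of 0.055 over all probes. The call for the gene was missed with median scaling (0.149), without the detection filter and without a variance trend. It was also missed without either array of the control or 60 min groups. TPX2, which activates AURKA on the spindle, ASPM, a protein of spindle poles, and DLGAP5, which stabilises kinetochore fibres, changed by 0.15, 0.20 and 0.18 (adjusted p = 0.0925, 0.0945 and 0.0902). The microtubule-binding proteins NUSAP1 and CKAP2 changed by 0.14 and 0.059.

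Of 3 cytokinesis genes none passed the test. ECT2, which activates RhoA for the contractile ring, had 8.94 and 8.99 in control arrays, 9.40 and 9.27 at 30 min and 9.03 and 9.64 at 60 min. Its 60 min arrays lay on either side of those at 30 min, and its change of 0.37 ± 0.15 was the largest of those that missed the threshold (adjusted p = 0.0936). ANLN, which binds actin in that ring, and PRC1, which bundles midzone microtubules, changed by 0.017 and -0.025.

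Of 4 genes of chromosome structure 2 rose, both subunits of condensin, the complex that compacts mitotic chromosomes. NCAPG had 11.53 and 11.60 in control arrays, 11.66 and 11.62 at 30 min and 11.80 and 11.91 at 60 min. It was 1.22-fold higher at 60 min than in control cells (0.29 ± 0.060, adjusted p = 0.00557). SMC2 had 9.80 and 9.67 in control arrays, 9.90 and 9.93 at 30 min and 9.97 and 9.95 at 60 min, a rise of 0.22 ± 0.072 (adjusted p = 0.0453). Its second probe rose by 0.27 (adjusted p over all probes 0.0307), and another, detected on 2 arrays, changed by -0.18. NCAPG missed the threshold with median scaling (adjusted p = 0.157), without a variance trend (0.0553) and without control replicate 1 (0.063). SMC2 missed it when any of the 6 arrays was omitted, with median scaling (0.647), with cyclic loess and without the detection filter. It also missed it with the mean of the detected probes, in a fit on only the groups compared and without a variance trend. TOP2A, the topoisomerase that untangles sister chromatids, had 13.37 and 13.35 in control arrays, 13.26 and 13.38 at 30 min and 13.44 and 13.64 at 60 min (0.18 ± 0.069 from control, adjusted p = 0.0768). SMC4, the partner of SMC2, changed by 0.13 (adjusted p = 0.111).

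**Figure D3:**
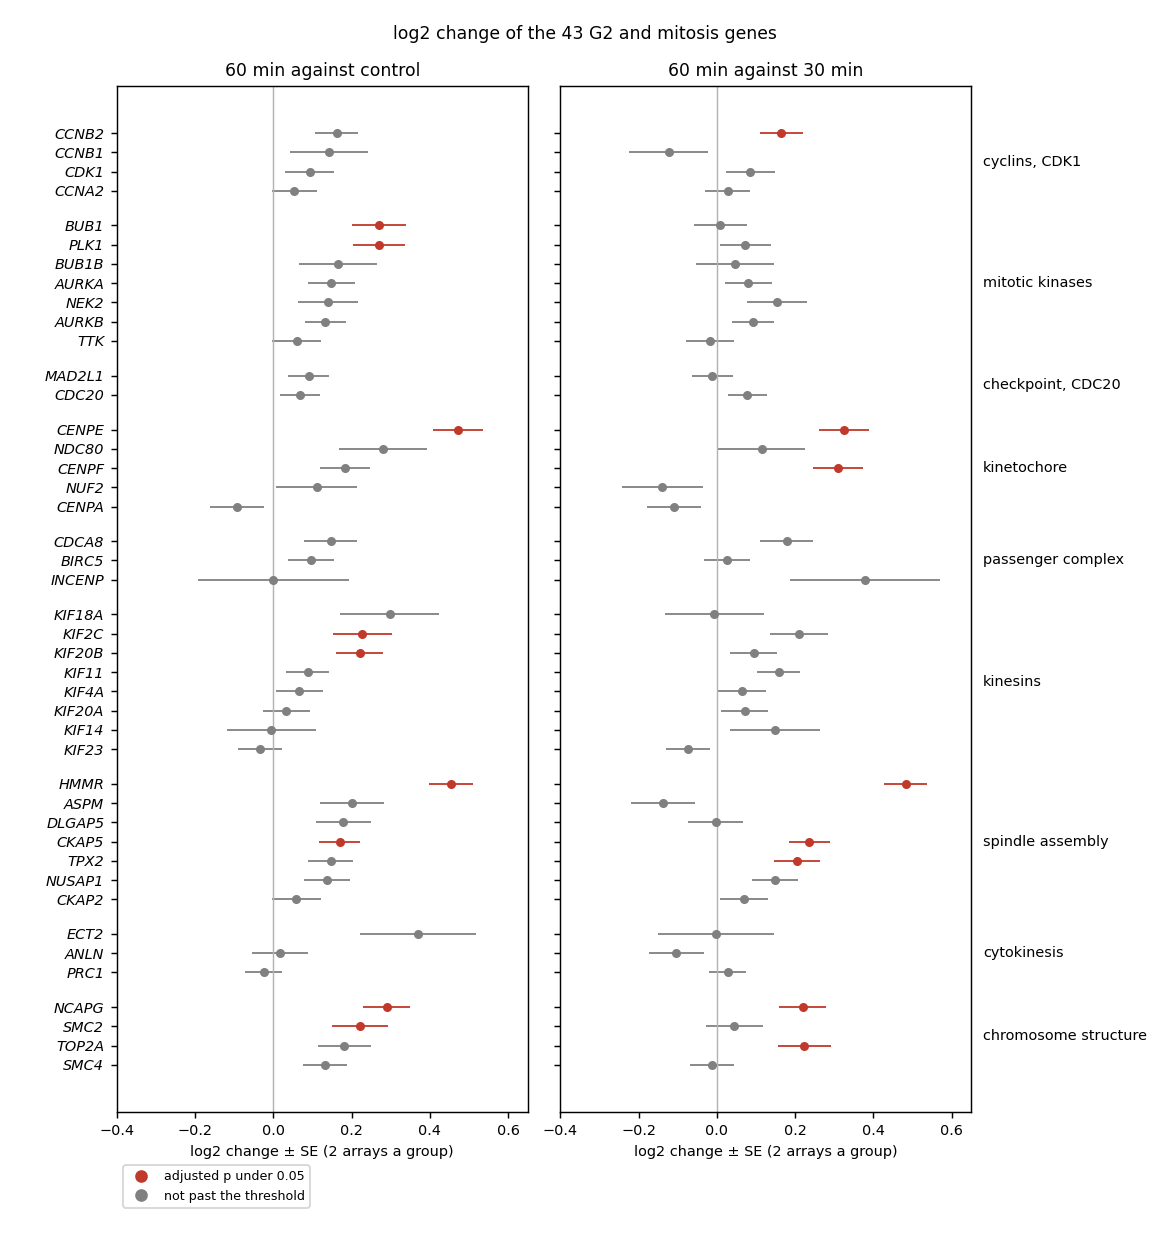
Log2 change with its standard error (horizontal axis) for each of the 43 genes, grouped by role, at 60 min against control (left) and against 30 min (right); red marks genes past the adjusted threshold. CENPE at 0.47 and HMMR at 0.45 lead the left panel, no red point lies below 0, and HMMR at 0.48 leads the right panel.

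The count of 9 depended on the processing and on single arrays. It was 2, CENPE and HMMR, with median scaling and without a variance trend. It fell when either control array or 60 min replicate 2 was omitted and rose without 60 min replicate 1. Such fits leave 1 array in a group, and in each of them the share of all genes called higher was below the 10.5% reported. The 2 genes are 4.65% of the set, and the share of all genes called higher was 3.22% with median scaling and 5.66% without the trend. With those settings, and without control replicate 1, the share of the set was near that of all genes.

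**Figure D4:**
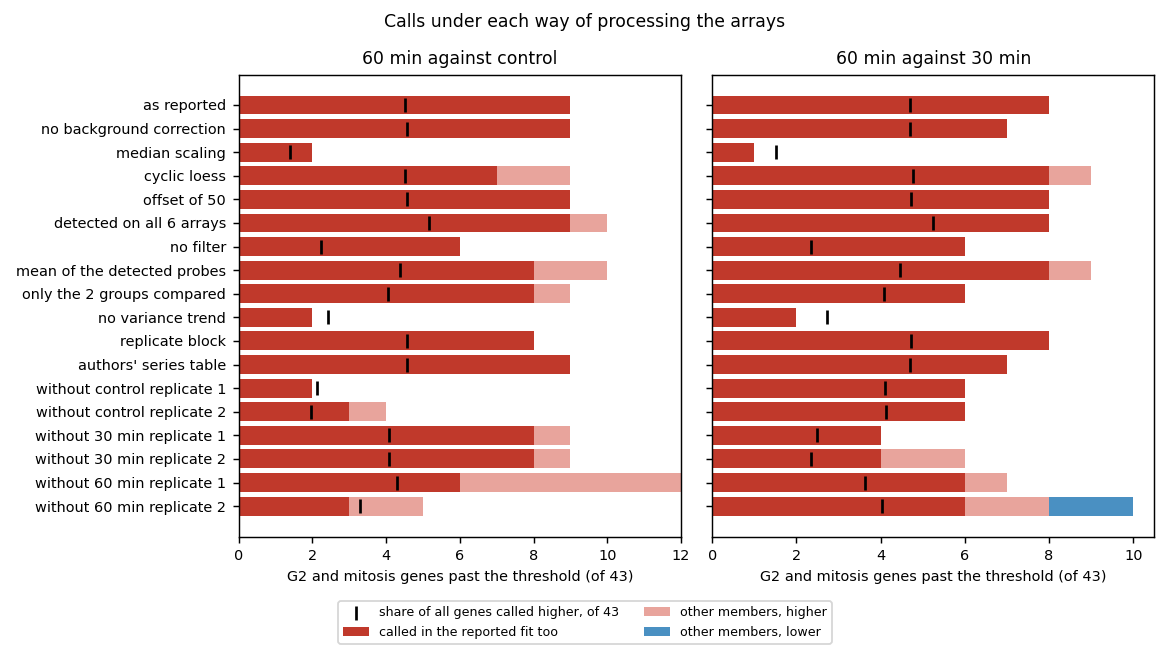
Number of the 43 genes past the threshold (horizontal axis) under each way of processing the arrays (vertical axis), at 60 min against control (left) and against 30 min (right). Dark red bars are genes also called as reported, pale red and blue bars are other members called higher and lower, and black ticks mark 43 times the share of all genes called higher in that setting. The bar is 9 as reported and 2 to 12 in the left panel, close to its tick where it falls to 2.

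The 60 min arrays were then set against those at 30 min, to ask which genes differed between the times. Here 8 genes were higher at 60 min and none was lower (18.6% of the set, against 10.9% of all genes higher, 11.7% lower and 22.7% in either direction): HMMR, CENPE, CENPF, CKAP5, TOP2A, NCAPG, TPX2 and CCNB2. The median of the 43 genes was 0.073, against -0.0087 over all genes tested, and 31 of 43 lay above 0 (72.1%, against 48.3% of all genes). The comparison against control and this one share the 60 min arrays. HMMR was 1.40-fold higher at 60 min than at 30 min (0.48 ± 0.056, adjusted p = 0.000291), CENPE 1.25-fold (0.32 ± 0.064, 0.00451) and CENPF 1.24-fold (0.31 ± 0.064, 0.00571). CKAP5 rose by 0.24 (adjusted p = 0.00832), TOP2A by 0.22 (0.0353), NCAPG by 0.22 (0.0222), TPX2 by 0.21 (0.0254) and CCNB2 by 0.16 (0.0494). In TPX2 the arrays had 11.76 and 11.76 in controls, 11.74 and 11.66 at 30 min and 11.94 and 11.87 at 60 min, so the 60 min arrays were the highest.

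In contrast, PLK1, BUB1, KIF20B, KIF2C and SMC2, which rose against control, did not pass the test against 30 min. Their changes from 30 to 60 min were 0.073, 0.0090, 0.094, 0.21 and 0.045, with adjusted p-values from 0.0648 to 0.944. At 30 min they stood at 0.20, 0.26, 0.13, 0.017 and 0.18 above control. The call in the comparison of the times held in all 17 settings for HMMR alone; median scaling ended those of the other 7, and the count was 1 with it, 2 without a variance trend and 4 without 30 min replicate 1. The share of the set was then 2.33% with median scaling, against 3.53% of all genes, 4.65% without the trend, against 6.34%, and 9.3% without 30 min replicate 1, against 5.77%. Without 30 min replicate 1 CENPF, NCAPG, TOP2A and CCNB2 missed the threshold (adjusted p = 0.0636, 0.0699, 0.215 and 0.14), and without 30 min replicate 2 TPX2, NCAPG, CKAP5 and CCNB2 did (0.176, 0.125, 0.0557 and 0.172). Without 60 min replicate 1 TPX2 and CCNB2 missed it (0.113 and 0.22), and without 60 min replicate 2 TOP2A and NCAPG (0.232 and 0.104). Without control replicate 1 or 2 CCNB2 and TOP2A missed it (0.0576 to 0.0792).

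At 30 min none of the 43 genes differed from control by the limma fit, where 0.151% of all genes were higher and 0.175% lower. At an unadjusted p under 0.05, 11 genes were higher and 0 lower, or 25.6% of the set, against 5.19% of all genes higher and 6.05% lower. The 11 were ASPM, BUB1, PLK1, CCNB1, SMC4, DLGAP5, ECT2, SMC2, NUF2, KIF18A and CENPE, with log2 changes from 0.15 to 0.37 and adjusted p-values from 0.165 to 0.418. These values are from the brightest probe of each gene. At 30 min against control the other detected probe changed by -0.57 for SMC4, -0.13 for NUF2 and -0.0077 for CENPE. The other probes of SMC2 changed by -0.0048 and -0.067, and that of DLGAP5 by 0.17. The SMC4 probe, a dim one, was lower at the same unadjusted threshold. ASPM had 11.35 and 11.23 in control arrays, 11.57 and 11.69 at 30 min and 11.38 and 11.61 at 60 min. Its 30 min arrays lay above the controls and overlapped those at 60 min (0.34 from control, adjusted p = 0.165). A fit on the control and 30 min arrays alone called 2 genes, ASPM and ECT2 (4.65% of the set, against 0.542% of all genes higher). Among the 43 genes, each by its brightest probe, the lowest value was that of INCENP (-0.38, adjusted p = 0.503). Its probe was dim, with 6.66 and 7.13 at 30 min against 7.40 and 7.15 in controls. The median of the 43 genes at 30 min was 0.039, and 27 lay above 0 (48.7% of all genes did). Both 30 min arrays lay above both controls in 17 genes (21.4% of all genes) and below both in 7 (23.2% of all genes).

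For 18 of the 43 genes more than 1 probe was detected. Tested probe by probe, 11 of 62 probes were higher at 60 min than in controls and none was lower (17.7%, against 7.74% of all probes higher and 8.54% lower). At 60 min against 30 min 12 of 62 were higher and none lower (19.4%, against 7.5% of all probes higher and 7.98% lower). Omission of 1 array gave 3 probes (without control replicate 1) to 16 (without 60 min replicate 1) against control. Without control replicate 1 they were 4.84% of the 62, against 3.11% of all probes, and 4 probes were called without control replicate 2 and 7 without 60 min replicate 2. Against 30 min fewer probes were called with any 1 array omitted. Without 30 min replicate 1 their share of the set was below that of all probes, and in the other omissions it lay above. With median scaling 3 probes were called against control (4.84%, against 2.35% of all probes) and 2 against 30 min (3.23%, against 2.47%). Without a variance trend 2 were called against control (3.23%, against 2.31%) and 1 against 30 min (1.61%, against 1.71%). Both probes were called for CENPE and for HMMR. At 60 min against control a dimmer probe alone was called for CKAP5, SMC2 and DLGAP5, by 0.34, 0.27 and 0.20. KIF23 had -0.035 on its brightest probe and 0.24 on the other, and NUF2 0.11 and -0.15, none of them past the test. SMC4 changed by -0.013 at 60 min against 30 min on its brightest probe and by 0.64 on a dim one (adjusted p over all probes 0.0404).

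**Figure D5:**
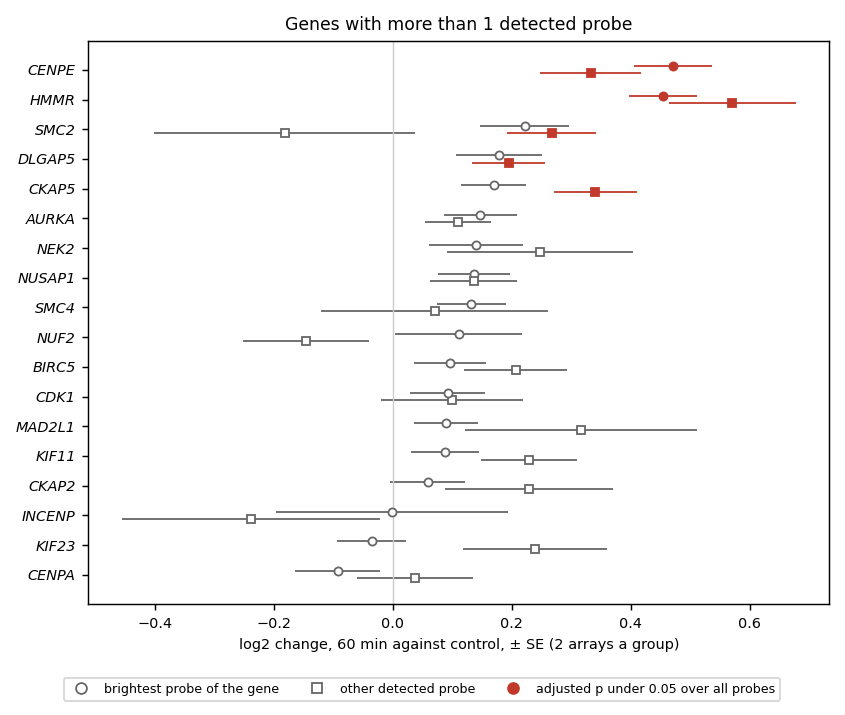
Log2 change at 60 min against control with its standard error (horizontal axis) for each detected probe of the 18 genes (vertical axis) with more than 1; circles are the brightest probe, squares the others, and red marks probes past the threshold over all probes. Both probes of CENPE (0.47 and 0.33) and HMMR (0.45 and 0.57) are red, and the probes of KIF23 and NUF2 fall on opposite sides of 0.

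The promoter motifs were also counted apart in the members that were called and in the others. Among the 9 genes higher at 60 min than in controls 7 held a CHR match (77.8%), and among the 30 others with a listed promoter 24 did (80%). A CCAAT match was present in 5 of the 9 (55.6%) and in 24 of the 30 (80%). These are counts with no test.

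Other genes of the cell cycle, from lists that share no gene with the 43, moved both ways at 60 min. Against control 10 of 80 further G2 and mitosis genes rose (12.5%, against 10.5% of all genes) and 5 fell (12.3% of all genes did; median 0.075). The number higher was 4 without control replicate 1, 5 without control replicate 2 and 14 without 60 min replicate 1. CENPI, a centromere protein, rose by 0.58 ± 0.10 (adjusted p = 0.00257) and the proliferation marker MKI67 by 0.43 ± 0.087 (0.00443). HASPIN, the kinase that marks centromeric histone H3, fell by 0.37 and DSN1, a kinetochore subunit, by 0.34 (adjusted p = 0.00686 and 0.00843). Without control replicate 1 HASPIN and DSN1 missed the threshold (0.0543 and 0.0744), and without control replicate 2 MKI67 and HASPIN did (0.0595 and 0.0505). Of 17 genes listed as regulators of these genes only CDKN1A rose (5.88%, against 10.5% of all genes). In the same list 4 fell, where 12.3% of all genes did, and the median was -0.00013. Fewer were called lower when either control array was omitted. CDKN1A, the inhibitor of cyclin-dependent kinases known as p21, had 13.32 and 13.25 at 60 min, against 12.86 and 12.88 in controls (0.42 ± 0.052, adjusted p = 0.000394). NFYA, a subunit of the CCAAT-binding factor, had 8.90 and 8.83 at 60 min, against 9.38 and 9.32 in controls (-0.48 ± 0.080, adjusted p = 0.00162). Its partner NFYB had 7.09 and 7.09, against 7.55 and 7.60 (-0.49 ± 0.12, adjusted p = 0.0116), which missed the threshold when either control array was omitted.

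Of 14 subunits and partners of the anaphase-promoting complex 1 rose, ANAPC16 (0.66 ± 0.14, adjusted p = 0.00555, lost without control replicate 1), a share of 7.14%, and none fell. Of 10 cohesin genes none rose and 1 fell, CDCA5, which protects cohesion until mitosis (-0.21 ± 0.057, adjusted p = 0.0188, missed when control replicate 1, control replicate 2 or 60 min replicate 1 was omitted). Of 63 genes of G1 and S phase 12 rose and 9 fell (19%, against 10.5% of all genes higher; median 0.032). Fewer were called higher, and fewer lower, without control replicate 1, control replicate 2 or 60 min replicate 2. In those fits the share called higher was near or below that of all genes. CCNE1, the cyclin of entry into S phase, rose by 0.34 (adjusted p = 0.00295) and RFC2, a clamp loader subunit, by 0.34 (0.0108). The call for CCNE1 was missed with median scaling and with the mean of its detected probes. E2F2, a transcription factor of S phase genes, fell by 0.44 and UHRF1, which maintains DNA methylation after replication, by 0.30. RFC2 missed the threshold without control replicate 1 (0.0645), control replicate 2 (0.0752) or 60 min replicate 2 (0.0621). With median scaling 2 of the further G2 and mitosis genes were called higher and 2 lower, and 0 of the G1 and S phase genes higher and 1 lower. The difference between these lists and the 43 genes was not tested.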

How the data were processed

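RNA of 6 HEK293 samples was measured on Illumina bead arrays. The authors deposited probe intensity, not normalized, with a detection p-value beside each, per the file headers, and a series table of log2 values that share one distribution; per the submitters' processing notes GenomeStudio 2011.1 and R 2.15.3 were used. The log2 of quantile normalized intensities differed from that table by at most 0.0040. Here, intensities were background corrected (neqc, offset 16), quantile normalized and fitted in R 4.3.3 by limma 3.58.1 on all 6 arrays, with group means and a variance trend (3 residual and 8.91 prior degrees of freedom). Benjamini-Hochberg adjustment ran over 12547 genes, or over 22377 probes where said, and genes under 0.05 were called. The scripts were tested on simulated data. The number of arrays limits the precision (median SE 0.062 for the 43 genes). Probes were named through the platform annotation, of which 30113 had 1 symbol, and updated by gene identifier to RefSeq names. No set test was run. All 43 genes were named; from the other lists, the 2 largest rises and 2 largest falls among calls at 60 min against control. The members and lists were chosen with earlier results of these data known. Alternatives changed background correction, scaling, filter, probe choice, fit or arrays. Promoters came from RefSeq.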

Additional observations from a re-analysis of the deposited data

Results flagged for a closer look

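8 genes had a different change at 30 min than at 60 min relative to the same controls, by the test of the 60 min arrays against the 30 min arrays in the limma fit. They were 18.6% of the set, where 10.9% of all genes were higher and 22.7% differed in either direction. With median scaling or without a variance trend the share of the set was below that of all genes. The differences on the log2 scale were 0.483 for HMMR, 0.324 for CENPE, 0.31 for CENPF, 0.237 for CKAP5, 0.224 for TOP2A, 0.219 for NCAPG, 0.205 for TPX2 and 0.165 for CCNB2. For HMMR, CENPF, TPX2, CKAP5, TOP2A and CCNB2 the mean at 30 min was below the control mean, and for CENPE and NCAPG it was above. Groups of 2 arrays are too small for a search for single outlying arrays.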

How the results depend on the processing

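No call of the 43 genes at 60 min changed sign in any of 17 alternatives, but most calls were lost in some. With median scaling the calls numbered 2 against control and 1 against 30 min, the medians were 0.112 and 0.0271, and the median of all genes moved to -0.060 and -0.065. Without a variance trend the calls numbered 2 and 2. In a fit on only the groups compared, 2 genes were called at 30 min (4.65% of the set, against 0.542% of all genes). Omission of 1 array gave 2 to 12 calls at 60 min against control, 4 to 10 against 30 min (8 higher and 2 lower without 60 min replicate 2) and 0 to 3 at 30 min; the medians ranged from 0.108 to 0.157, 0.067 to 0.0904 and 0.0313 to 0.0655. At 60 min against 30 min ECT2 changed sign to 0.303 without 60 min replicate 1 (adjusted p = 0.0416) and had -0.306 without 60 min replicate 2 (0.039), and SMC4 to 0.313 with the mean of its detected probes (0.0216). With the replicate block 8 genes were called against control, KIF2C being lost, and 8 against 30 min, the same genes as without it. Either count was 18.6% of the set, against 10.6% of all genes higher than in control and 11% higher than at 30 min. Across all genes same-numbered samples did not deviate together (r from -0.056 to 0.076). Whether they were paired is not given in the labels, and a shared deviation in part of the genes was not tested. The authors' series table, no background correction, an offset of 50, cyclic loess, both filters and the mean of probes kept the counts within 1.5 times of those reported. The causes were not tested. Dim probes had larger errors: that of INCENP, at 6.66 to 7.53, had an SE of 0.19, against a median of 0.062.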
